A study of Mus musculus with 2 samples.

Results

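The Rab, Arf, Arl and Rap genes described here are the protein-coding genes whose name starts with one of these 4 family names followed directly by a digit, and their peaks are the Olig2 ChIP-Seq peaks that have such a gene as their nearest gene. Of the 4215 peaks on the list, 3736 were nearest to a protein-coding gene, and 33 of these belonged to the 4 families: 24 to Rab genes, 1 to an Arf gene, 3 to Arl genes and 5 to Rap genes. They lay on 13 chromosomes and had 28 distinct nearest genes, out of 110 genes that fit the name rule in the RefSeq annotation. Chromatin for the Olig2 ChIP was prepared from the whole spinal cord of 6-week-old male C57BL/6 mice, each immunoprecipitation drawing on the cords of 5 animals and an antibody to Olig2, a transcription factor of the oligodendrocyte (OL) lineage with a basic helix-loop-helix (bHLH) domain. The Input Control was sheared chromatin with no antibody, and its values are not used here. The authors pooled the reads of 2 experiments and called peaks once, so each peak has a single value and no replicate, no difference could be set against the spread between mice, and the depth behind a peak is unknown. Because the cords were not sorted into cell types, a peak cannot be placed in OLs, neurons or other cells.

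Small GTPases of these families are molecular switches of membrane traffic and adhesion. Guanine nucleotide exchange factors (GEFs) load them with GTP and turn them on, GTPase-activating proteins (GAPs) turn them off, and the active form recruits effectors to a particular membrane. Rab proteins give endosomes, Golgi, secretory vesicles and lysosomes their identity, Arf proteins recruit coats and remodel membrane lipids, many of the Arf-like (Arl) proteins act at the Golgi, lysosomes, microtubules and cilia, and Rap proteins control adhesion to matrix and to other cells. OLs make a large sheet of plasma membrane during myelination, and its proteins and lipids reach the sheath by this kind of traffic. Some genes fit the name rule although their product is not a GTPase: they are named after a partner, as Rab11fip3 (an effector of Rab11) or Arl6ip5 (named as an Arl6-interacting protein) are, and they are kept apart where it matters.

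Each peak is 51 bp wide, and 9 sequences are printed on the plus strand of GRCm38 (mm10). The first 6 are shown because they hold CAGCTG, the form of the E-box in the strongest motif of the list, as 9 of the 33 peaks did. Capitals mark every CANNTG, the E-box core that bHLH factors recognize, of which CAGCTG is one form. They are the peaks of Rab40c (chr17:25925557-25925607), Rab6b (chr9:103146950-103147000), Rab6a (chr7:100607462-100607512), Arl6ip5 (chr6:97210727-97210777), Rap2b (chr3:61363667-61363717) and Rap1gap (chr4:137680194-137680244).
Rab40c: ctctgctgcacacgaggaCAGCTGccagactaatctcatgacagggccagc
Rab6b: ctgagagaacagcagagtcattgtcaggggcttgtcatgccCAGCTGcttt
Rab6a: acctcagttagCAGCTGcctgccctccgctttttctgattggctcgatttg
Arl6ip5: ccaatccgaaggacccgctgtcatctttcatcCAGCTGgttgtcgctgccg
Rap2b: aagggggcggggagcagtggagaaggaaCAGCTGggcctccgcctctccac
Rap1gap: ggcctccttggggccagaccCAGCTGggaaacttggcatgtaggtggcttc

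The second set shows promoter peaks with no CANNTG in their 51 bp. In Rab5a (chr17:53479177-53479227) and Arl4d (chr11:101665480-101665530) the capitals mark TGACGTCA, the palindrome known as the cAMP response element, and in Rab4b (chr7:27178996-27179046) they mark ATTGG, which is CCAAT read on the other strand.
Rab5a: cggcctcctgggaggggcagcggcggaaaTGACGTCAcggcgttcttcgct
Arl4d: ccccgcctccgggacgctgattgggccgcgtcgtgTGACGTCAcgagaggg
Rab4b: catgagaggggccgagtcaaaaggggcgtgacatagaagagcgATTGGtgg

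A gene is called bound here if any peak had it as its nearest gene. Of the 110 genes of the 4 families, 28 were bound (25.5%, exact 95% confidence interval 17.6 to 34.6%), where the background over all 21900 protein-coding genes was 14.1%. Rab genes accounted for most of these, with 21 of 69 bound (30.4%, 19.9 to 42.7%), followed by 3 of 8 Rap genes (37.5%, 8.52 to 75.5%), 3 of 27 Arl genes (11.1%, 2.35 to 29.2%) and 1 of 6 Arf genes (16.7%, 0.421 to 64.1%). With the GTPases alone, 18 of 59 Rab, 2 of 5 Rap, 1 of 20 Arl and 1 of 6 Arf genes were bound, 22 of 90 in all (24.4%). The genes named after a partner were bound in 6 of 20 cases (30.0%). Intervals cover counting error only, and neither the difference between families nor that from other genes was tested. One peak with a score of 10.5 is listed under the older name 5430435G22Rik, the gene that RefSeq calls Rab7b. The name rule leaves it out, and matching by gene number would give 29 bound genes (26.4%).

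**Figure D1:**
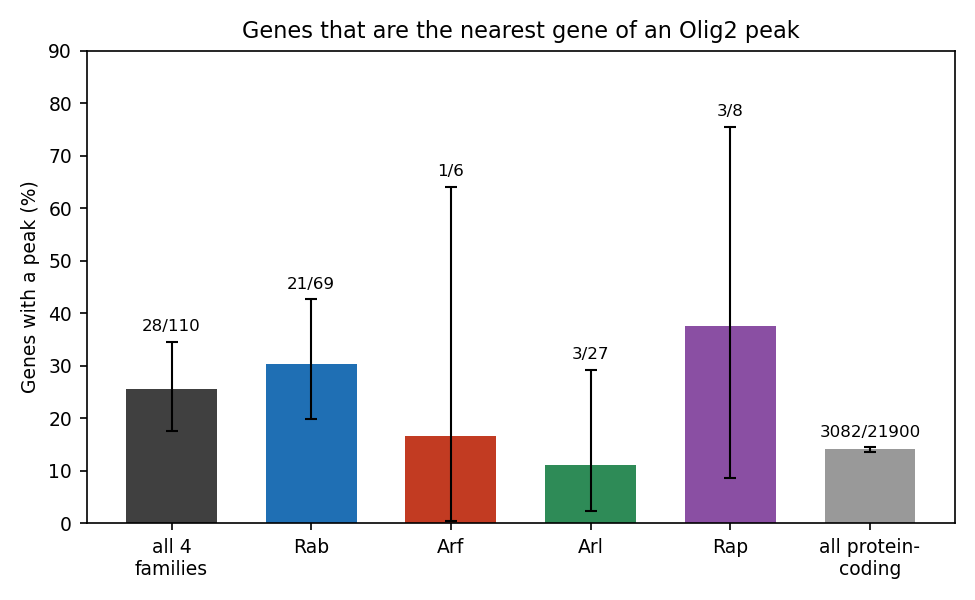
Bars give the percent of genes that had an Olig2 peak assigned to them, for all 4 families, for each family and for all protein-coding genes, with exact 95% confidence intervals as lines and counts above. The share was 30.4% of Rab genes and 14.1% of all protein-coding genes, and the intervals of the Arf and Rap families, with 6 and 8 genes, span most of the range.

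The peaks of these genes were spread from rank 110 to rank 3881 of the list. Their peak scores, whose scale is not named, ran between 5.09 and 57.1 with a median of 16.1 (order-statistic 95% interval 9.53 to 21.2), against a median of 11.6 for all peaks nearest to a protein-coding gene, a value inside that interval. Of the 33 peaks, 12 (36.4%, exact 95% confidence interval 20.4 to 54.9%) scored at least 20, where the background was 24.4%, a value inside that interval. The medians by family were 17.4 for 24 Rab peaks, 14.3 for 5 Rap peaks and 12.1 for 3 Arl peaks, and the single Arf peak scored 14.8. The Arf, Arl and Rap peaks all fell inside the range of the Rab peaks.

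**Figure D2:**
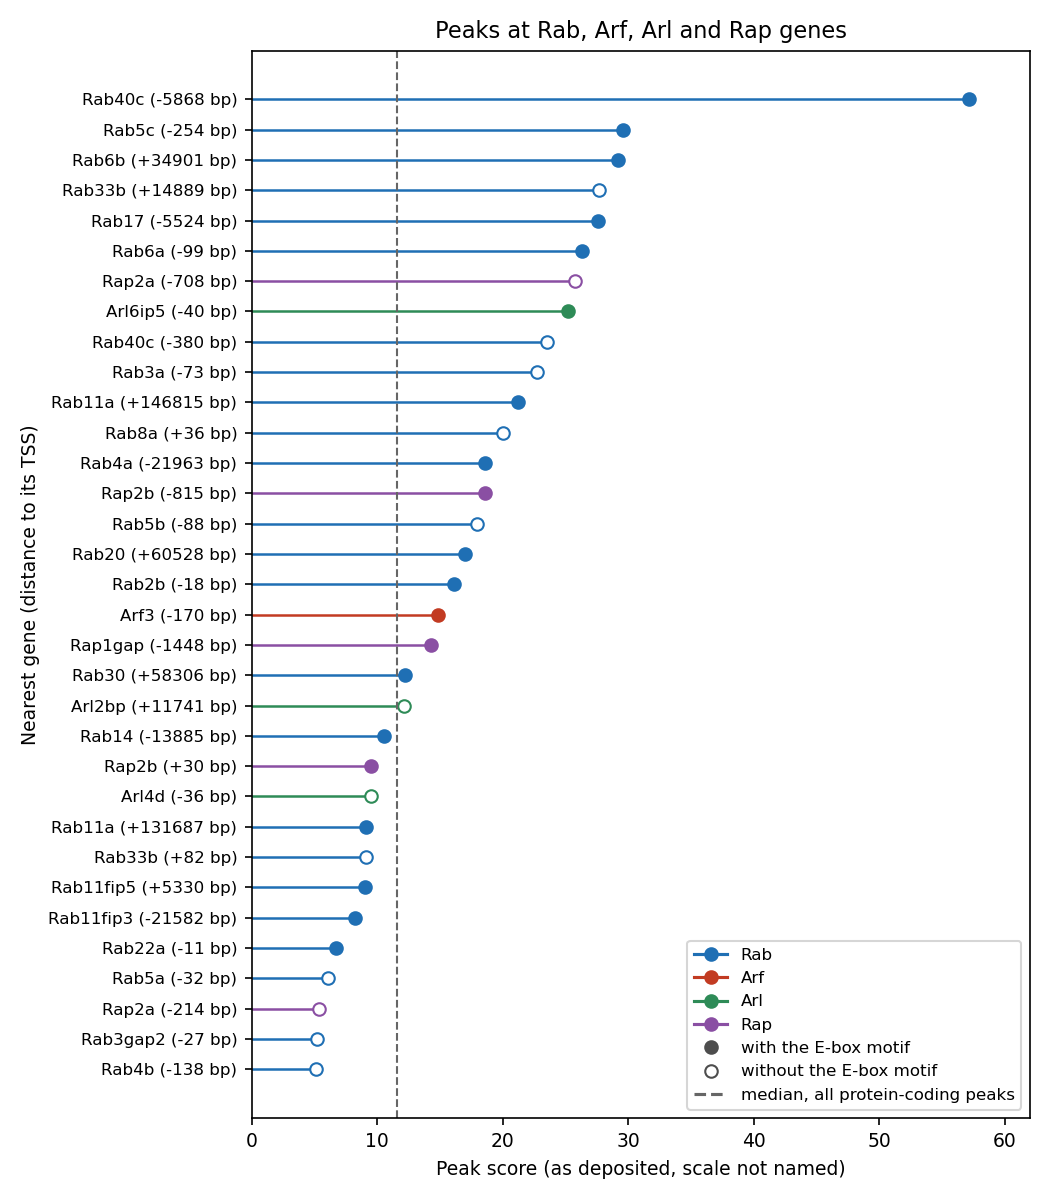
Each line is 1 of the 33 peaks, ordered by its peak score (horizontal axis, deposited score with no named scale) and labelled with its nearest gene and the distance to the TSS. Filled points carry the E-box motif, open points do not, and the dashed line is the median of all protein-coding peaks, 11.6. Only the stronger Rab40c peak, at 57.1, lies above 30.

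The strongest peak of the 4 families belonged to Rab40c, whose product carries a SOCS box and recruits a ubiquitin ligase. It lay 5868 bp upstream of the Rab40c TSS, had a score of 57.1 and ranked 110 of the list. Its 51 bp hold 1 CAGCTG, and it was annotated to the transcription termination site of Pigq, a gene of GPI anchor synthesis, although no gene body holds its center. A second Rab40c peak lay in the promoter at -380 bp (chr17:25920069-25920119, score 23.5, rank 783), without the E-box motif. The paralog Rab40b was the nearest gene of no peak. All other peaks of the families scored below 30.

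Of the 90 GTPases, 76 were placed at a site of action. Of those not placed only Arl4d was bound, and all the others, Rab15 among them, had no peak. Among the sites of action listed, GTPases of early endosomes and endocytosis had the highest share of bound genes. Of 10 such genes 8 had a peak (80%, beside 14.1% of all protein-coding genes): Rab5a, Rab5b, Rab5c, Rab4a, Rab4b, Rab22a, Rab17 and Rab20. Rab21 and Rab31 had none. Since the names of part of the bound genes were known when these groups were drawn up, the count is a description and not independent evidence. Rab17, known from transport in epithelial cells, and Rab20, known from phagosomes, are the loosest fit to the group, and without them 6 of 8 were bound. That count comes from the same list and is no independent check. Rab4a and Rab4b, both bound, could also have been placed in the recycling group, which would lower the share. Of the 8 peaks 5 lay within 1 kb of the TSS, beside 43.9% of all protein-coding peaks. The E-box motif was carried by 5, beside 58.2%.

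The Rab5 genes, which drive fusion of early endosomes, were bound in all 3 cases, each by 1 promoter peak. The Rab5c peak at -254 bp (chr11:100738359-100738409) scored 29.6 and ranked 500, the Rab5b peak at -88 bp (chr10:128696331-128696381) scored 17.9, and the Rab5a peak at -32 bp scored 6.09 and ranked 3650. The 3 paralogs thus shared the position of their peak, but not its score or its motifs. Only the Rab5c peak had a deposited hit of the E-box motif, and that hit did not hold CANNTG, although CACTTG stood elsewhere in the same 51 bp. The Rab5b promoter is shared: the start of Pmel, a melanosome protein, lay 468 bp from the peak center.

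Rab4 genes, which return cargo from early endosomes to the surface, were both bound, at different kinds of site. The Rab4b peak lay at -138 bp and, with a score of 5.09, was the weakest of all 33. The Rab4a peak lay at -21963 bp (chr8:123784008-123784058, score 18.6) and was annotated as intergenic. Its center lay in the body of the RefSeq gene Gm36188, whose start was 4590 bp away. Rab22a had a promoter peak at -11 bp (6.71). The peak of Rab17 at -5524 bp (chr1:90975119-90975169, score 27.6) ranked 579 and holds a pair of CANNTG sequences. The peak assigned to Rab20, at +60528 bp with a score of 17.0, lay within an intron of the collagen gene Col4a2, whose own start was 105166 bp away.

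In the group of recycling and delivery to the plasma membrane, 3 of 11 genes were bound (27.3%, exact 95% confidence interval 6.02 to 61.0%, beside 14.1% of all protein-coding genes). Rab8a, which moves vesicles from the Golgi to the plasma membrane and cilium, had a peak at +36 bp (chr8:72161211-72161261, score 20.03) without the E-box motif. Rab11a, the GTPase of recycling endosomes, had peaks at +146815 bp (chr9:64590916-64590966, score 21.2) and +131687 bp (chr9:64606044-64606094, score 9.11), and each carried the E-box motif. Both Rab11a peaks lay in intron 5 of 24 of Megf11, a transmembrane protein with EGF repeats, and a RefSeq start of Megf11 was nearer than that of Rab11a, at 89600 and 104728 bp. Rab14, which acts between the Golgi and endosomes, had a peak at -13885 bp (10.5). Rab35, known for exosome release by OLs, and Rab8b, Rab10, Rab11b and Arf6 were the nearest genes of no peak.

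GTPases of the ER and Golgi were bound in 6 of 22 cases (27.3%, exact 95% confidence interval 10.7 to 50.2%, beside 14.1% of all protein-coding genes), and the Rab6 genes had the highest score of these and the third highest. Rab6a, which controls transport at the Golgi, had a peak at -99 bp (26.3, rank 632), and Rab6b, its neuron-enriched paralog, one in intron 2 of 7 at +34901 bp (29.2, rank 516). Both hold CAGCTG. Another annotated start of Rab6b lay 10836 bp from its peak, nearer than the start used for the deposited distance, and the start of Mrpl48, a mitochondrial ribosomal protein, lay 135 bp from the Rab6a peak. Rab33b, a Golgi GTPase that binds the autophagy protein Atg16l1, had an intergenic peak at +14889 bp (chr3:51498830-51498880, score 27.7) and a weaker one in the promoter at +82 bp (chr3:51484023-51484073, score 9.11), neither with the E-box motif. Rab2b (-18 bp, score 16.1), Arf3 (-170 bp, chr15:98763263-98763313, score 14.8, rank 1567) and Rab30 (intron 1 of 4, +58306 bp, 12.2) completed the group. For Rab30 too another annotated start was nearer, 11011 bp from the peak. Rab1a, Rab1b, Arf1, Arf4 and Arf5, the common GTPases of this pathway, had no peak.

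Among GTPases of secretion, lysosomes and cilia the bound genes were Rab3a and, by gene number, Rab7b. Rab3a, the Rab of synaptic vesicles, had a promoter peak at -73 bp (chr8:70754581-70754631, score 22.7, rank 837) with no CANNTG, and was the single bound gene of 6 in regulated secretion (16.7%, beside 14.1% of all protein-coding genes), since Rab3b, Rab3c, Rab3d, Rab26 and Rab37 had none. In late endosomes and lysosomes Rab7, Rab9, Rab9b, Rab24, Arl8a and Arl8b had no peak, and the Rab7b peak named above was the single one of that group of 7 (14.3%), 26197 bp from its TSS. None of 9 GTPases of cilia and microtubules, among them Arl3, Arl6, Arl13b, Rab23 and Rab28, and none of 4 Rabs of lysosome-related organelles was bound, counts whose exact 95% intervals reach 33.6% and 60.2% and so include the 14.1% of all protein-coding genes. An unbound gene is only one that no listed peak has as its nearest gene, and Olig2 binding at a lower level, or across the territory of a neighbor, would not be seen.

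The Arl family had a single bound GTPase out of 20 (5%, exact 95% confidence interval 0.127 to 24.9%, which includes the 14.1% of all protein-coding genes). Arl4d, which recruits Arf GEFs to the plasma membrane, had a promoter peak at -36 bp with a score of 9.47 and the TGACGTCA shown above. The other bound Arl genes encode partners. Arl6ip5, a membrane protein of the ER that modulates glutamate transport, had a promoter peak at -40 bp (25.2, rank 689) with CAGCTG. The peak assigned to Arl2bp, a protein that binds Arl2, lay at +11741 bp (chr8:94678807-94678857, score 12.1) and was annotated to an intron of Pllp, which encodes plasmolipin, a proteolipid of myelin. The start of Pllp was 17410 bp away, so the nearest-gene rule passed over the gene that contains the peak.

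In the Rap family, peaks stood at Rap2 but not at Rap1. Rap2a had promoter peaks at -708 bp (chr14:120477728-120477778, score 25.7, rank 658) and -214 bp (chr14:120478222-120478272, score 5.35), 494 bp apart and both without the E-box motif. Rap2b had promoter peaks 845 bp from each other, at -815 bp (18.6, rank 1182, with CAGCTG) and +30 bp (chr3:61364512-61364562, 9.53), each carrying the E-box motif. Both genes act on adhesion and the actin cytoskeleton, and in both the peak farther from the TSS had the higher score. Rap2c, Rap1a and Rap1b had no peak. Rap1gap, which switches Rap1 off, had a peak in intron 1 of 23 at -1448 bp (14.3) with CAGCTG, and Rap1gap2 and Rap1gds1 had none.

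Among the Rab partners, 30% were bound (exact 95% confidence interval 6.67 to 65.2%, which includes the 14.1% of all protein-coding genes). These 3 of 10 genes had scores between 5.22 and 8.99. They were Rab11fip5 (intron 1 of 4, +5330 bp, score 8.99) and Rab11fip3 (intron 1 of 14, -21582 bp, 8.22), both effectors of Rab11, and Rab3gap2 (-27 bp, 5.22), the noncatalytic subunit of the GAP of Rab3. All 3 scored below the median of the Rab GTPases, 18.6.

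By the deposited names, under which Rab7b has no peak, paralogs of 1 number were bound together in some subfamilies and apart in others. Of 20 GTPase subfamilies with 2 or more genes of the same number, 3 had a peak at every member (Rab4, Rab5 and Rab6), 8 at some members and 9 at none. The mixed ones were Rab2, Rab3, Rab8, Rab11, Rab33, Rab40, Arl4 and Rap2. How often subfamilies of other genes were bound together was not computed. Of the 44 GTPases without such a paralog, 6 were bound (13.6%), beside 24.4% of all 90 GTPases and 14.1% of all protein-coding genes.

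Most peaks of these genes lay at promoters. Of the 33 peaks 19 (57.6%, exact 95% confidence interval 39.2 to 74.5%) were within 1 kb of the TSS, where the background was 43.9%, and the same 19 were annotated as promoter, against 40.2% of all protein-coding peaks. Of these 19, 16 (84.2%) were upstream of the TSS, as were 75.5% of all protein-coding peaks within 1 kb. By gene, 17 of the 110 (15.5%) had a peak within 1 kb, where the background was 7.32%. Rab peaks divided evenly, with 12 of 24 within 1 kb, while 4 of 5 Rap, 2 of 3 Arl and the Arf peak were so placed. By deposited annotation the other 14 peaks comprised 9 in introns, 4 in intergenic sequence and 1 at a termination site. Of the 9 intron peaks, 5 lay in the member itself (Rab6b, Rab30, Rab11fip3, Rab11fip5 and Rap1gap) and 4 in Megf11, Col4a2 or Pllp. Promoter peaks and more distant peaks had similar scores, with medians of 16.1 and 15.6, against 10.5 and 12.5 over all protein-coding peaks.

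**Figure D3:**
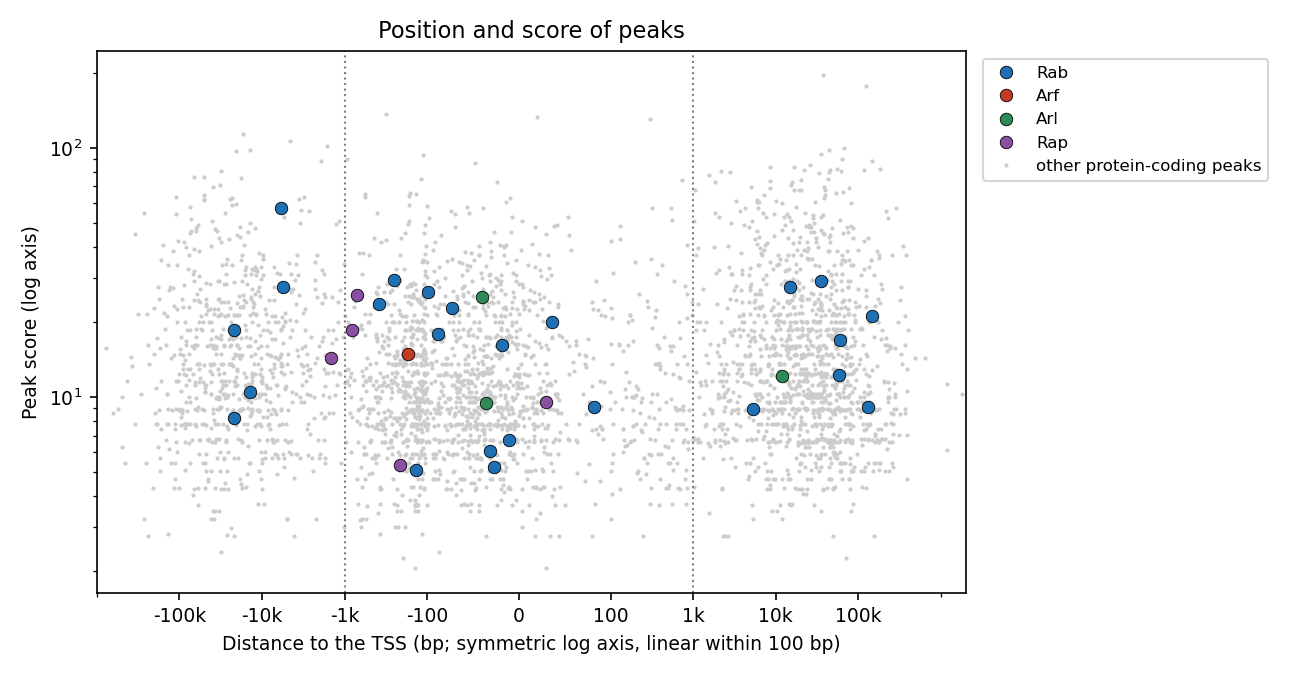
Each point is a peak nearest to a protein-coding gene, with the distance to the TSS in bp on a symmetric log axis and the peak score on a log axis. Colored points are the 33 peaks of the 4 families and grey points all others, and dotted lines mark 1 kb on either side. The 19 promoter peaks of the families sit mostly upstream, and the strongest peak, of Rab40c, lies 5868 bp upstream.

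Of the 28 bound genes 5 (17.9%) had 2 peaks, where the background of 2 or more peaks was 16%. These were Rab40c, Rab11a, Rab33b, Rap2a and Rap2b, with peaks 5488, 15128, 14807, 494 and 845 bp apart. At 3 of the 19 promoter peaks (Rab6a, Rab5b and Rab2b) the start of another protein-coding gene also lay within 1 kb, that of Tox4 being 267 bp from the Rab2b peak. For 31 of the 33 peaks the nearest start of a protein-coding gene in RefSeq was that of the family gene, the exceptions being those of Rab11a. How often either case arose over all protein-coding peaks was not computed.

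The E-box motif was found at distant peaks and less often at promoters. This motif, the strongest of the 20 listed (log p -942), is named for its most frequent word, AGCAGCTG, and HOMER derived it from the same peaks. It marked 20 of the 33 peaks (60.6%, exact 95% confidence interval 42.1 to 77.1%), where the background was 58.2%. Of the 14 peaks beyond 1 kb 12 (85.7%) carried it, where the background was 77.5%, and the exceptions were the intergenic Rab33b peak and the Arl2bp peak. Of the 19 peaks within 1 kb 8 (42.1%) carried it, where the background was 33.6%, namely those of Rab5c, Rab6a, Rab2b, Rab22a, Arf3, Arl6ip5 and both of Rap2b. In Rab peaks the motif marked 11 of 12 distant and 4 of 12 promoter peaks. The same order by position held over all protein-coding peaks.

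**Figure D4:**
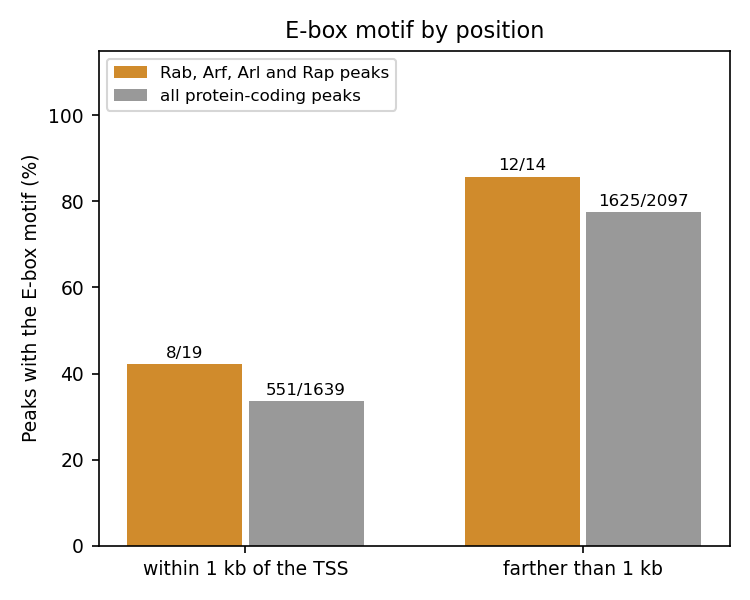
Bars give the percent of peaks with the deposited E-box motif, within 1 kb of the TSS and farther away, for the 33 peaks of the 4 families (left of each pair) and for all protein-coding peaks. Counts stand above the bars, with 8 of 19 promoter peaks and 12 of 14 distant peaks of the families carrying the motif.

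A hit of the motif need not hold an E-box. Of its 29 hits in these peaks, 22 hold CANNTG. Read from the genome on both strands, CANNTG was in the 51 bp of 14 peaks (42.4%, against 50.2% of all protein-coding peaks) and CAGCTG in 9 (27.3%, against 31.5%). In 200 bp around the peak centers CAGCTG stood at 15 peaks (45.5%, against 45.4% of all protein-coding peaks). In windows of the same width 1000 bp higher in coordinate, whatever the strand of the gene, it stood at 2 (6.06%, against 9.37%). Peaks with the motif had a median score of 16.5 and those without it 12.1, against 12.8 and 10.3 over all protein-coding peaks.

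The 11 promoter peaks without the E-box motif had hits of other motifs. Counted over all 33 peaks, with or without the E-box motif, the one most often seen has TGATTGGC as its most frequent word. It marked 6 peaks (18.2%, against 19.3% of all protein-coding peaks), of which 3 lay within 1 kb of the TSS. Of those 3 (Rab6a, Rab5b and Rab4b), Rab6a also carried the E-box motif. CCAAT itself was found on either strand of 5 peaks, all at promoters (Rab6a, Rab4b, Rab5b, Arl6ip5 and Arl4d). That is 26.3% of the 19 promoter peaks, against 20.3% of all promoter peaks of protein-coding genes. Of these 5, Rab6a and Arl6ip5 also carried the E-box motif. Shares over promoter peaks without the E-box motif alone were not computed. TGACGTCA was found in the peaks of Rab5a and Arl4d, 10.5% of the 19, against 1.77%. This share rests on 2 peaks, and the word was searched for after the peaks had been seen, as was CCAAT. No family peak had a hit of the motif with the word ACTTCCGGTCCG, which marked 5.94% of all protein-coding peaks.

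Promoter sequences (250 bases before to 50 after the start, RefSeq, GRCm38.p6) were matched for 89 of the 110 genes. CAGCTG, on either strand, was in the promoters of 6 of 16 genes with a peak within 1 kb (37.5%), of 5 of 9 genes with a farther peak only (55.6%), and of 7 of 64 genes with no peak (10.9%), where it was in 17.4% of all protein-coding promoters. CANNTG was in 68.8%, 88.9% and 59.4% of the promoters of the same groups and in 72.1% of all. TGACGTCA was in 6 of the 89 (6.74%), against 2.54% of all, and CCAAT in 51.7%, against 42.3%. A match describes the sequence and does not show binding.

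The regulators and effectors of these GTPases were also found among the bound genes. Of 176 genes listed for their role, 37 were bound (21.0%, exact 95% confidence interval 15.3 to 27.8%), beside the 14.1% of all protein-coding genes. Regulators and effectors that carry a family name, such as Rap1gap, Rab3gap2, Rab11fip3, Rab11fip5 and Arl2bp, are counted with the families above. They are not in this list, so the counts by role leave them out. This list too was drawn up after part of the bound names had been seen, so its share is not independent evidence. The bound regulators had 53 peaks, of which 15 (28.3%, against 43.9% of all protein-coding peaks) lay within 1 kb of the TSS and 37 (69.8%, against 58.2%) carried the E-box motif. By role, 7 of 33 Rab GEFs, 8 of 37 Rab GAPs, 7 of 32 Rab effectors, 4 of 15 Arf GEFs, 6 of 23 Arf GAPs, 1 of 11 effectors of Arf and Arl, 2 of 7 Rap GEFs and 2 of 5 Rap GAPs were bound. None of 6 Rap effectors was bound.

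The highest score among the regulators belonged to Ccz1, which with Mon1 proteins loads Rab7 (+25621 bp, chr5:143989207-143989257, score 85.2). Of the other Rab GEFs, Sbf1 (18.6) and Dennd5a (18.3) were the highest. Appl2, an effector of Rab5, had an intron peak at +11210 bp (36.0), and Rufy1, an endosomal effector (25.5), and Myrip, which links Rab27 to myosin (17.8), followed. The Rab GAP genes were led by Grtp1 (31.3), Tbc1d15 (19.4), a GAP of Rab7, and Tbc1d10a (14.8).

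On the Arf side the coat adaptor Gga3 had a promoter peak at +57 bp (38.9). Acap3 (31.3), Arfgap2 (22.5) and Git1 (21.4) led the Arf GAPs. The Arf GEF genes Cyth1, with 4 peaks up to 27.9, and Iqsec1, with 5 peaks up to 15.6, had more peaks than any GTPase of the 4 families, and Cyth4 followed with 7.76. For Rap, the GEF Rapgef3 (Epac1), which answers to cAMP, had 3 peaks up to 25.4 and Rapgef6 scored 12.3, while the GAP genes Garnl3 and Sipa1l3 had 2 peaks each, up to 24.2 and 17.8. Of the Rap GTPases themselves, Rap2a and Rap2b were bound, while Rap1a, Rap1b and Rap2c had no peak.

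**Figure D5:**
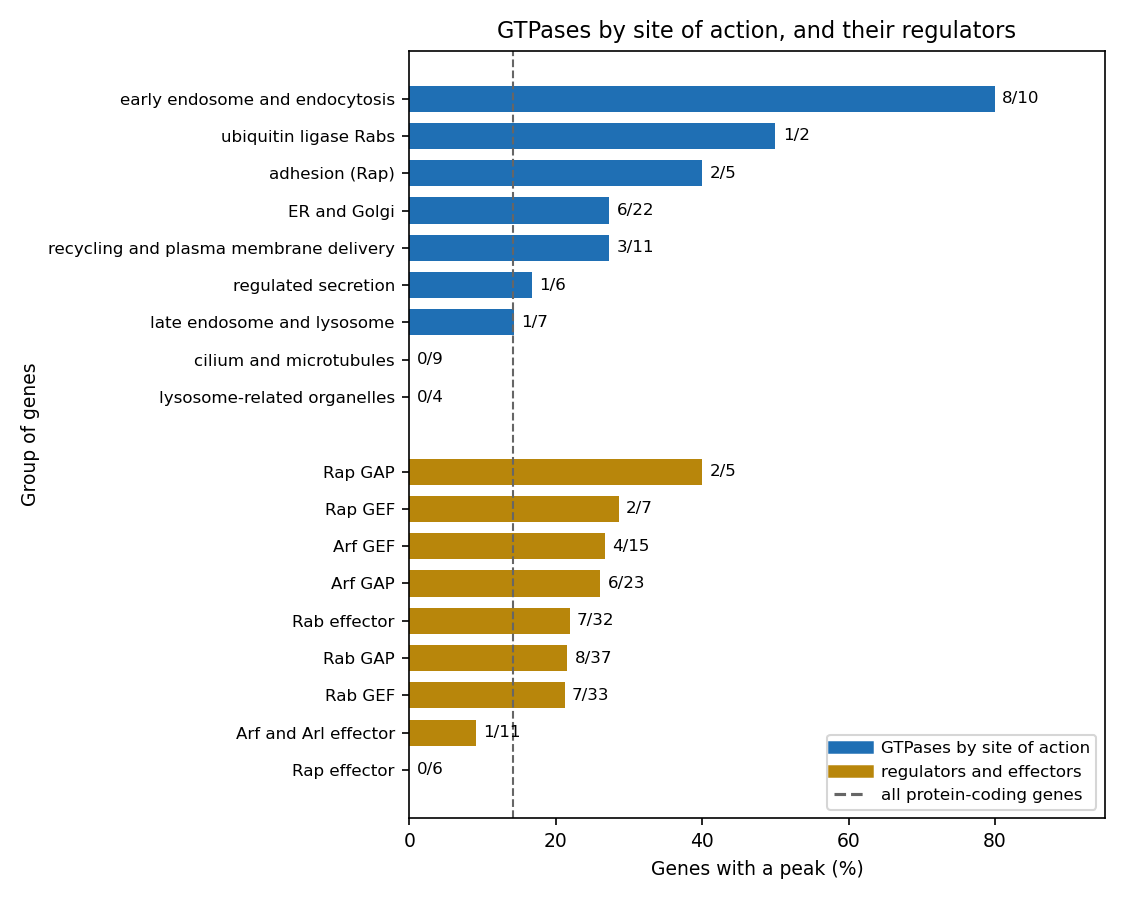
Bars give the percent of genes with a peak, with counts beside them, for GTPases grouped by site of action (blue) and for their regulators and effectors by role (gold). The gold bars leave out regulators that carry a family name. Both lists were drawn up with part of the bound names known. The dashed line is the 14.1% of all protein-coding genes. GTPases of early endosomes reached 8 of 10, while those of cilia and of lysosome-related organelles had none.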

How the data were processed

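Reads were aligned by the authors with BWA (build mm10), pooled over 2 experiments and passed to MACS2 for peak calling, and HOMER gave motifs and nearest genes, per the study's methods and the submitters' processing notes. Each peak score was deposited by the authors on a scale that is not named, and GC content as a fraction of 51 bp. In GRCm38.p6, 4215 of 4215 peaks had the deposited GC fraction, so this reference was used for sequences and RefSeq gene starts. No values of the Input Control and no depth per peak were used, and a second table repeated peaks of the list. The columns of gene type and description carry exchanged headers, and the type was read accordingly.

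Genes were taken by deposited name. All 33 peaks matched RefSeq by name and gene number. With 1 pooled list there is no test: shares are given with exact (Clopper-Pearson) 95% intervals beside the same measure over all protein-coding genes or peaks. The members and lists were chosen with earlier results of these data known, and the sites of action and regulators after part of the bound names had been seen. All bound family genes are named, with positions for the 10 highest peaks, the 2 highest of each family and genes with 2 peaks, and up to 3 regulators for each role. One role among the 176 regulators and the small GTPases of other families are not reported here. Motif and nearest-start searches were tested on simulated data. Python 3.11.15, numpy 2.4.6, pandas 2.3.3 and scipy 1.17.1 were used.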

Additional observations from a re-analysis of the deposited data

How the results depend on the processing

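No paired analysis was possible because the list comes from pooled reads and holds 1 value per peak, and no replicate could be left out. Of 114 values recomputed under other settings, 97 stayed within the 95% interval of the value reported and 17 did not. Many settings reuse part of the same genes or peaks and the intervals are wide, so staying within them is partly built in. CANNTG in the 51 bp, at 42.4% of all family peaks, counted as within the interval of the E-box share, 60.6%. Of the 114, 66 concern Arf, Arl or Rap, whose 1 to 5 peaks give intervals so wide that staying within them says little. When a score of at least 20 was required, 10.0% of all family genes, 13.0% of Rab genes and 0% of Arf genes were bound, against 3.84% of all protein-coding genes, and the median scores were 26.0 for all families and 26.9 for Rab, by construction. When only peaks within 1 kb of the TSS counted, 15.5% of all and 17.4% of Rab genes were bound. At a score of at least 20, Arl and Rap had 1 peak each. The share within 1 kb was then 100% for Arl and 100% for Rap, against 34.6% of all protein-coding peaks at that score. The share with the E-box motif was 100% for Arl and 0% for Rap, against 69.6%. With the GTPases alone, the share within 1 kb was 100% for Arl (1 peak) and 100% for Rap (4 peaks), and the E-box share was 0% for the 1 Arl peak. A 2000 bp window held 100% of Rap peaks. The single Arf peak held the E-box motif but neither CANNTG in 51 bp nor CAGCTG in 200 bp (0% each). No Arf peak reached a score of 20, so no position or motif could be given for it there. Matching genes by number in place of name, a setting added after the data were seen, gave 26.4% of all family genes and 31.9% of Rab genes.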

Other observations

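A pair of peaks had as their nearest gene a non-coding RNA that carries the name of a family gene, and the rule on gene type left them out. The peak of Rab10os, the antisense transcript beside Rab10, lay in its promoter at -339 bp (chr12:3235427-3235477, score 7.41) without the E-box motif. The peak of Rab11fip4os2 lay at +24365 bp (chr11:79650696-79650746, score 12.5) with the motif. That peak sits within an intron of Rab11fip4 itself, which the nearest-gene rule counts as unbound, and Rab10 was the nearest gene of no peak.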
